A study of Drosophila melanogaster with 12 samples.

Results

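The arrays described here are the 3 that were taken from flies at 18 °C, set against the 9 taken from flies at 25 °C in the same series of 12 arrays. All 12 arrays measured RNA from heads of y w; tim01 Drosophila melanogaster kept in constant darkness, so that the tim01 mutation, which removes functional TIMELESS protein and with it the molecular clock, was shared by both sides of the comparison. The flies were raised at 25 °C and then kept for several days in a thermocycle (CA) of 12 h at 18 °C, the cryophase, and 12 h at 25 °C, the thermophase. The 3 members are the CA 2-h, CA 6-h and CA 10-h arrays of the cryophase, chosen by the temperature and hour in their labels. The 25 °C group joins the CA 14-h, CA 18-h and CA 22-h arrays of the thermophase with the 2-, 6-, 10-, 14-, 18- and 22-h arrays of the following day at a constant 25 °C (AA). Each array is a pool of many heads from 1 hour of 1 day, and the labels do not give the age of the flies or say that the arrays came from separate cultures. The p-values below therefore measure temperature against a spread that mixes technical noise with time of day. All 18 °C arrays also lie between 2 and 10 h of the CA day, so the temperature cannot be told apart from that combination of day and hours. Values are RMA signals on the log2 scale, and differences are 18 °C minus 25 °C on that scale, with the standard error (SE) from limma.

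Flies do not hold their body temperature, and a drop of several degrees slows their protein synthesis, folding and metabolism together. Heat shock proteins are chaperones that help other proteins to fold. Hsp90 (Hsp83 in the fly) and the Hsp70 family work with co-chaperones that load their clients and drive their ATPase cycle, and many chaperone genes are controlled by heat shock factor, which is known for its activation by heat. The circadian clock of the fly is a feedback loop in which CLOCK and CYCLE switch on transcription of timeless (tim), period (per), Pdp1 and vrille (vri), and PERIOD and TIMELESS then block CLOCK and CYCLE. The transcripts of per and tim are also known for splicing that depends on temperature. In tim01 flies the loop is broken, and differences in these transcripts between arrays are seen without the daily oscillation that it drives.

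Median signals of the 12 arrays lay between 5.18 and 5.22, and correlations between arrays were between 0.980 and 0.997. The CA 18-h array at 25 °C stood apart from the others, with correlations of at most 0.990 and a mean spike-in signal of 7.91 against 8.65 to 9.13 elsewhere. The difference between the 3′ and 5′ actin control probe sets, a sign of RNA integrity, was 1.36 to 1.71 at 18 °C and 0.82 to 1.85 at 25 °C, and the GAPDH difference was 2.43 to 2.64 and 2.01 to 2.64. Photoreceptor genes identified the tissue as head, with mean signals over 8 measured genes of 10.06 to 10.31 at 18 °C and 10.14 to 10.33 at 25 °C. Heads were separated by sieving, and other body parts can pass the sieve. The 35 measured genes of the male reproductive tract had mean signals of 4.22 to 4.58 at 18 °C and 4.18 to 4.89 at 25 °C, and the 37 gut genes had 5.62 to 6.02 and 5.58 to 6.09. The median deviation of the male tract genes was high on the CA 6-h array (0.15) and on the AA 2-h and AA 6-h arrays (0.13 and 0.34). In none of the 9 marker lists did a gene separate the temperature groups completely. In such whole-tissue samples, fewer cells of a type and less RNA per cell cannot be told apart.

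With all 12 arrays and 13966 probe sets, only 3 probe sets passed limma at an adjusted p of 0.05. Signals of timeless and couch potato (cpo) rose at 18 °C (2 probe sets, 0.0143% of those tested) and Serendipity delta (Sry-delta) fell (1 probe set, 0.00716%). At an unadjusted p under 0.05, limma counted 311 probe sets as higher and 369 as lower. Together these are 680 of 13966, no more than the share of 0.05 that passes this threshold when no probe set differs. That number alone does not show a broad response to temperature. A simpler description counts the probe sets whose 18 °C arrays all lay above or all lay below each of the 9 arrays at 25 °C. By this measure 65 probe sets were higher (0.465%) and 108 were lower (0.773%), and the median gap between the groups was 0.04 in the first direction and 0.03 in the second. By chance alone, any 3 of 12 arrays stand apart from the other 9 on some probe sets, at a share near that of the higher ones. The counts alone are therefore not read as a response to temperature. Gaps over 0.2 were found for 3 probe sets on each side. Among 10862 genes, each represented by its brightest probe set, 50 lay above all 25 °C arrays (0.46%) and 98 lay below them (0.902%). An unadjusted p under 0.05 was reached by 210 genes with a higher signal (1.93%) and by 328 with a lower one (3.02%). These shares are the background for the groups of genes described next, and the median difference of all genes was -0.01.

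The gene mutated in these flies, timeless, was read by 3 probe sets that disagreed. The intermediate probe set (151485_s_at) read 5.97, 6.10 and 6.24 at 2, 6 and 10 h of the cryophase, and its lowest, median and highest signals at 25 °C were 5.13, 5.28 and 5.69. The 3 cold arrays were all above the warm ones with a gap of 0.28, the widest among the higher probe sets. It rose by 0.76 (SE 0.10, a 1.69-fold difference, limma adjusted p = 0.0211), and against the AA arrays of the same clock hours the difference was 0.81 (adjusted p = 0.308, or 0.398 with clock hour as a block). The dimmest probe set (151484_i_at, chosen after its values were seen) read 2.41, 3.54 and 4.10 against 1.88 to 2.23 at 25 °C, a difference of 1.30 (SE 0.22, limma adjusted p = 0.0659). Most of its values were below the 20th percentile of the array. The brightest probe set (142154_at) overlapped fully, with 7.66, 7.27 and 7.55 at 18 °C and 7.29 to 7.78 at 25 °C, and its difference was -0.08 (SE 0.11). The temperatures were thus separated by 2 of the 3 tim probe sets, and the part of the transcript that each one covers is not given in the sources used here.

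Couch potato encodes an RNA-binding protein of neurons and other cells, and natural variation in the gene has been linked to adult dormancy and climate. Its intermediate probe set (150110_at) read 6.86, 7.07 and 6.99 at 18 °C, and the lowest, median and highest values at 25 °C were 6.44, 6.57 and 6.67. It rose by 0.40 (SE 0.06, a 1.32-fold difference, limma adjusted p = 0.0430). The other probe sets of cpo, chosen after their values were seen, differed in the same direction, by 0.43 (SE 0.12) for the brightest and by 0.39 (SE 0.11) for the dimmest, and did not pass (limma adjusted p = 0.513 for each). The brightest of them separated the temperatures by a gap of 0.002, and its difference was 0.042 with the day and the part of the day as terms. The dimmest overlapped.

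Sry-delta encodes a zinc finger transcription factor that is needed for expression of bicoid in the ovary. It read 5.22, 4.95 and 4.89 at 18 °C, below the lowest, median and highest 25 °C signals of 5.44, 5.54 and 5.73. It fell by 0.53 on the log2 scale (SE 0.07, a 1.44-fold difference, limma adjusted p = 0.0211). The lowest 2 readings were those of the CA 6-h and CA 10-h arrays, and the CA 2-h array lay closer to the warm arrays. All 3 calls were lost when the CA 6-h array was left out (adjusted p = 0.232 for tim, 0.560 for cpo and 0.271 for Sry-delta) or the CA 10-h array (0.288 for each). They were also lost without the AA 2-h array (0.0590, 0.0868 and 0.0590) and without the AA 10-h array (0.0571, 0.105 and 0.0571), and cpo was lost when any of the other AA arrays was left out as well (0.0642 to 0.0894). No direction changed, and the differences without 1 array ranged from 0.69 to 0.82 for tim, from 0.35 to 0.45 for cpo and from -0.63 to -0.46 for Sry-delta.

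**Figure D1:**
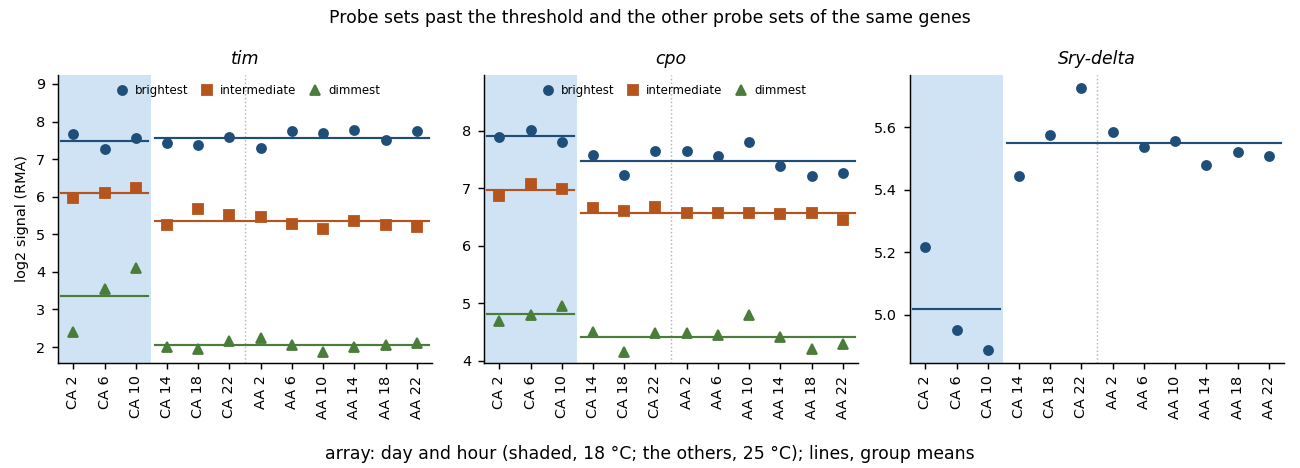
Log2 signals of every probe set of tim, cpo and Sry-delta on each of the 12 arrays, ordered by day and hour, with the 18 °C arrays shaded and a horizontal line at each group mean. The intermediate tim probe set sits at 5.97 to 6.24 in the shaded area and at 5.13 to 5.69 outside it, whereas the brightest tim probe set overlaps. Sry-delta sits at 4.89 to 5.22 in the shaded area and above 5.4 outside it.

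Of the 42 lists of processes, that of Hsp70, Hsp90 and their co-chaperones had the largest share of genes below every 25 °C array. Of the 20 measured genes for Hsp70, Hsp90 and their co-chaperones, 17 had a lower and 3 a higher mean at 18 °C, with a median difference of -0.17. An unadjusted limma p under 0.05 was reached by 8 of them, all lower (40.0%, against 3.02% of all genes), and 4 lay below every 25 °C array (20%, against 0.902%). None passed over all probe sets in the comparison of all 12 arrays, and under 27 alternatives Hsp83 passed in 1 and Stip1 and DnaJ-1 in 3 each. The Hsp90 gene Hsp83 had the widest gap of all 108 lower probe sets, 0.29. It read 8.43, 8.03 and 8.71 at 18 °C, and its lowest, median and highest signals at 25 °C were 8.997, 9.21 and 10.22. The difference was -1.02 (SE 0.23, a 2.02-fold difference, limma adjusted p = 0.273). The 2 highest signals of Hsp83 were on the CA 14-h and CA 18-h arrays, 10.07 and 10.22, the first arrays after the step to 25 °C. Against the CA thermophase arrays alone the difference was -1.43 and against the AA arrays alone it was -0.81, and both values use the same 3 cold arrays.

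DnaJ-1, an Hsp40 that delivers clients to Hsp70, read 6.77, 6.68 and 7.08 at 18 °C, and 7.28, 7.48 and 7.97 were its lowest, median and highest signals at 25 °C. Its difference was -0.67 (SE 0.13, limma adjusted p = 0.144). Stip1, which bridges Hsp70 and Hsp90, read 6.27, 5.46 and 5.98 against a range of 6.34 to 6.82 with a median of 6.65, a difference of -0.73 (SE 0.13, limma adjusted p = 0.101). The CA 6-h array was the lowest of the 12 for Hsp83, DnaJ-1 and Stip1. The fourth gene below all warm arrays was morgana (mora), which encodes a CHORD-domain partner of Hsp90, with 4.65, 4.53 and 4.59 against 4.74 to 5.10 and a difference of -0.35 (SE 0.08, limma adjusted p = 0.255). Other co-chaperones overlapped. CG1416 differed by -0.57 (SE 0.16), the exchange factor Hsp110 by -0.24 (SE 0.11), the Hsp40 Droj2 by -0.24 (SE 0.11) and the inducible Hsp70 gene Hsp68 by -0.24 (SE 0.11). These 4 were chosen after their values were seen, as was the constitutive Hsp70 gene Hsc70-4, which had the opposite sign with 10.60, 10.51 and 10.48 against 9.23 to 10.67 and a difference of 0.47 (SE 0.29). Among genes that no list held, the TPR co-chaperone Dpit47 (-0.14, SE 0.05) and the brighter probe set of Pih1D1 (-0.21, SE 0.07) also lay below every 25 °C array. Pih1D1 is a part of the R2TP complex that works with Hsp90, and its dimmer probe set overlapped (-0.03, SE 0.06). Both genes were likewise picked out from their values.

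**Figure D2:**
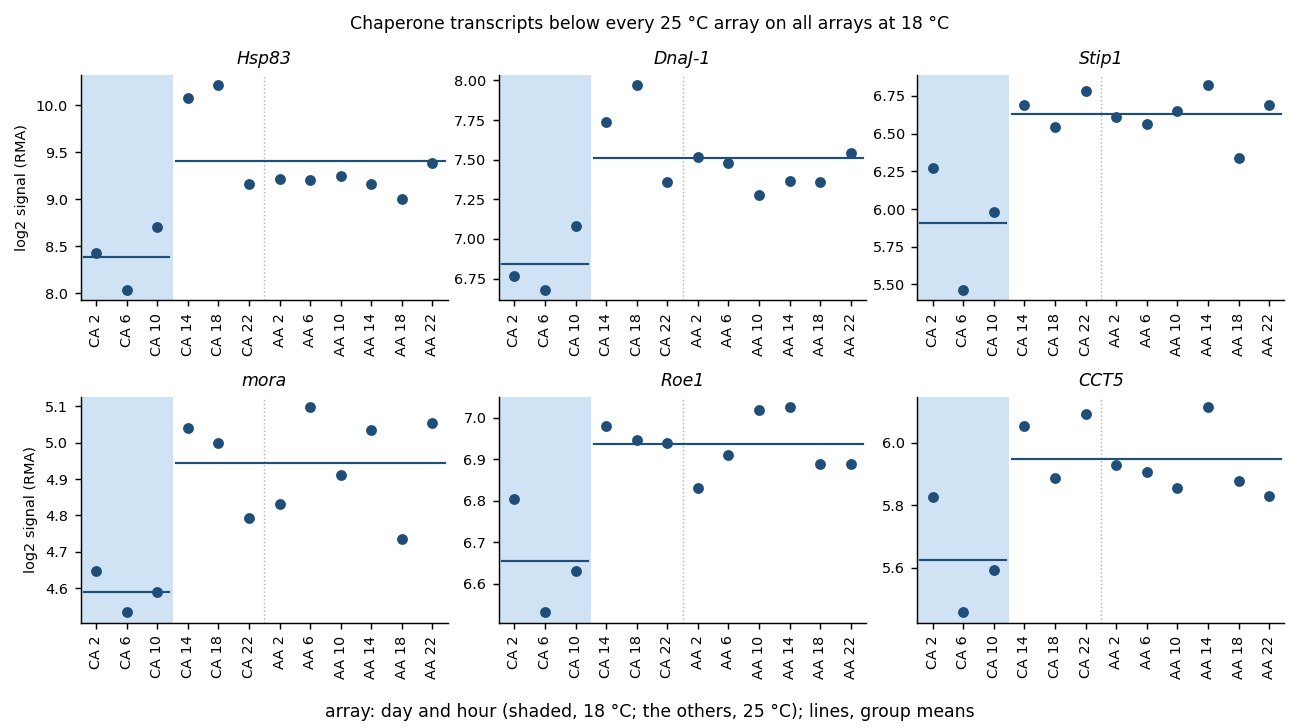
Log2 signals of the 6 chaperone-list genes that lay below every 25 °C array, by array, with the 18 °C arrays shaded and lines at the group means. Hsp83 sits at 8.03 to 8.71 in the shaded area and at 8.997 to 10.22 outside it. For CCT5 the highest cold array and the lowest warm array are separated by 0.002.

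CCT and the small and mitochondrial chaperones had lower medians as well. All 8 subunits of CCT, the ring-shaped chaperonin that folds actin and tubulin, had a lower mean at 18 °C, and their median difference was -0.15. For 3 of them (37.5%, against 3.02% of all genes) the unadjusted limma p was under 0.05. CCT5 read 5.83, 5.46 and 5.59 against 5.83 to 6.11, and its difference was -0.32 (SE 0.08, limma adjusted p = 0.380). It was the only subunit below every warm array (12.5%, against 0.902% of all genes). CCT8 (-0.23, SE 0.08) and CCT6 (-0.15, SE 0.07) overlapped. Of 9 small heat shock and mitochondrial chaperones, 8 had a lower mean and the median was -0.13. An unadjusted limma p under 0.05 was reached by 3, all lower (33.3%, against 3.02% of all genes). Roe1, the nucleotide exchange factor of mitochondrial Hsp70, read 6.804, 6.53 and 6.63 against 6.83 to 7.03 (difference -0.28, SE 0.06, limma adjusted p = 0.256). Only Roe1 of the 9 lay below every warm array (11.1%, against 0.902% of all genes). Hsp60A, the mitochondrial chaperonin, read 8.79, 8.34 and 8.18 against 8.55 to 9.26 (difference -0.38, SE 0.16), and the small heat shock gene l(2)efl differed by -0.15 (SE 0.07).

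Chaperone signals differed between the cold arrays, each of which is 1 hour. Median deviations of the Hsp70 and Hsp90 genes were -0.02, -0.25 and -0.14 on the CA 2-h, CA 6-h and CA 10-h arrays, with -0.11 to 0.16 on the warm arrays. Those of the CCT subunits were 0.01, -0.28 and -0.24, with -0.06 to 0.19 on the warm arrays. The CA 2-h array therefore lay within the warm range for both lists. Those of the small and mitochondrial chaperones were -0.036, -0.108 and -0.162, with -0.0175 to 0.064 on the warm arrays, so all cold arrays lay below that range. Single genes had other orders, since Hsp83 and DnaJ-1 were lower on the CA 2-h than on the CA 10-h array (8.43 against 8.71 and 6.77 against 7.08). The CA 6-h array is also an array with high male tract and gut signals (median deviations of 0.15 and 0.16) and with a low photoreceptor median of -0.18, and the part of this in the chaperone values was not tested beyond leaving arrays out. Without the CA 6-h array alone the medians were -0.10 for the Hsp70 and Hsp90 genes, which is over 1.5 times smaller, -0.14 for the small and mitochondrial chaperones and -0.15 for CCT. Without it and the AA 2-h and AA 6-h arrays the medians were -0.13, -0.14 and -0.17 for the Hsp70 and Hsp90 genes, the small and mitochondrial chaperones and CCT.

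Chaperones of the endoplasmic reticulum did not share the pattern. Of 21 measured genes 10 were higher and 11 lower, with a median of -0.01. CaBP1, a protein disulfide isomerase, had the smallest p among them, with 5.94, 5.42 and 5.45 against 5.74 to 6.54 and a difference of -0.43 (SE 0.14).

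**Figure D3:**
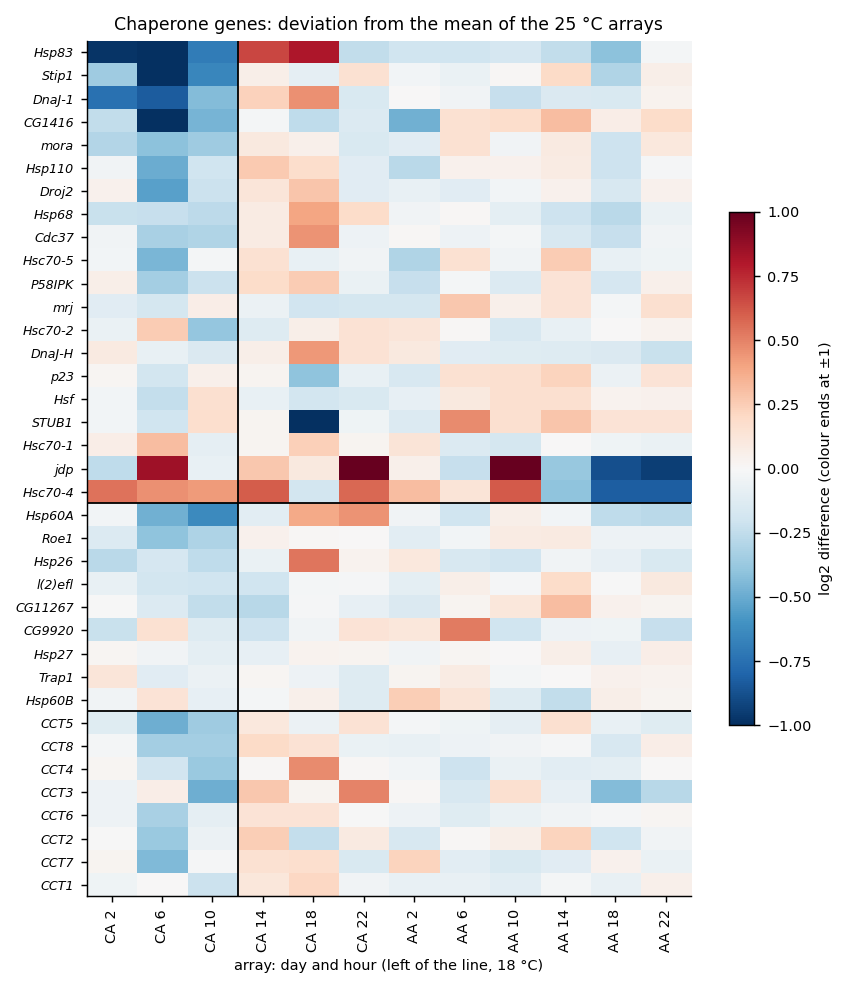
Deviation of each measured chaperone gene from its mean over the 25 °C arrays, in log2 units from -1 (blue) to 1 (red), with rows grouped from top to bottom as Hsp70, Hsp90 and co-chaperones, small and mitochondrial chaperones, and CCT, and columns as arrays with the 18 °C arrays left of the line. Blue cells gather on the CA 6-h and CA 10-h arrays. Hsc70-4 and jdp vary more between warm arrays than between temperatures.

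Among core clock genes, each read by its brightest probe set, per and vri lay above every 25 °C array (25%, against 0.46% of all genes). No gene lay below. Of 8 genes 4 had a higher and 4 a lower mean. An unadjusted limma p under 0.05 was reached by 3 higher genes (37.5%, against 1.93% of all genes) and 2 lower ones (25%, against 3.02%). Here tim is among the lower genes through 142154_at (-0.08), whereas 151485_s_at and 151484_i_at lay above every warm array. The per transcript read 7.36, 8.01 and 7.91 at 18 °C, and its lowest, median and highest signals at 25 °C were 6.25, 6.67 and 7.35. The difference was 1.01 (SE 0.21, a 2.01-fold difference, limma adjusted p = 0.184), the largest in the clock list where each gene is read by its brightest probe set. The groups were separated by 0.005, and the AA 10-h array was the nearest warm array at 7.35. With the day and the part of the day (2 to 10 h or 14 to 22 h) as terms, the per difference was 0.27. For vri, a repressor of Clock, the signals were 9.09, 8.83 and 9.07 against 7.86, 8.53 and 8.58 as lowest, median and highest. Its gap of 0.25 was the second widest among the higher probe sets, and the difference was 0.58 (SE 0.13, limma adjusted p = 0.242).

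Clock (Clk), which encodes the activator that vri represses, had the opposite sign. It read 3.83, 3.38 and 3.61 against 3.80 to 4.38 with a median of 4.13, a difference of -0.51 (SE 0.11, limma adjusted p = 0.255), and the CA 2-h array overlapped with the CA 14-h array. Pdp1, an activator of Clk, read 7.44, 6.86 and 7.16 against 6.48 to 7.04 (difference 0.31, SE 0.13). The repressor clockwork orange (cwo) differed by 0.40 (SE 0.20), the blue-light receptor cryptochrome (cry) by -0.34 (SE 0.12) and cycle (cyc) by -0.06 (SE 0.07), all with overlap. Of 8 measured kinases, phosphatases and degradation factors of clock proteins 7 were higher, with a median of 0.10. The remaining 1 was lower (12.5%, against 56.3% of all genes), and none lay apart from every warm array. The list's median deviations were 0.045, 0.033 and 0.198 on the CA 2-h, CA 6-h and CA 10-h arrays. The warm arrays ran from -0.106 to 0.068, so only the CA 10-h array lay above them. Doubletime (dco), a kinase of PER, read 7.46, 7.56 and 7.58 against 6.71 to 7.63 (0.41, SE 0.15), and slmb, which directs PER to degradation, differed by 0.27 (SE 0.09). With the day and the part of the day as terms, the dco difference was 0.002. Cipc, an inhibitor of CLOCK activity in mammals, was chosen after its values were seen. One probe set (153408_at) lay above all warm arrays (5.01, 4.96 and 5.07 against 4.21 to 4.89), and the brighter one (151088_at) overlapped with a difference of 0.09 (SE 0.05).

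**Figure D4:**
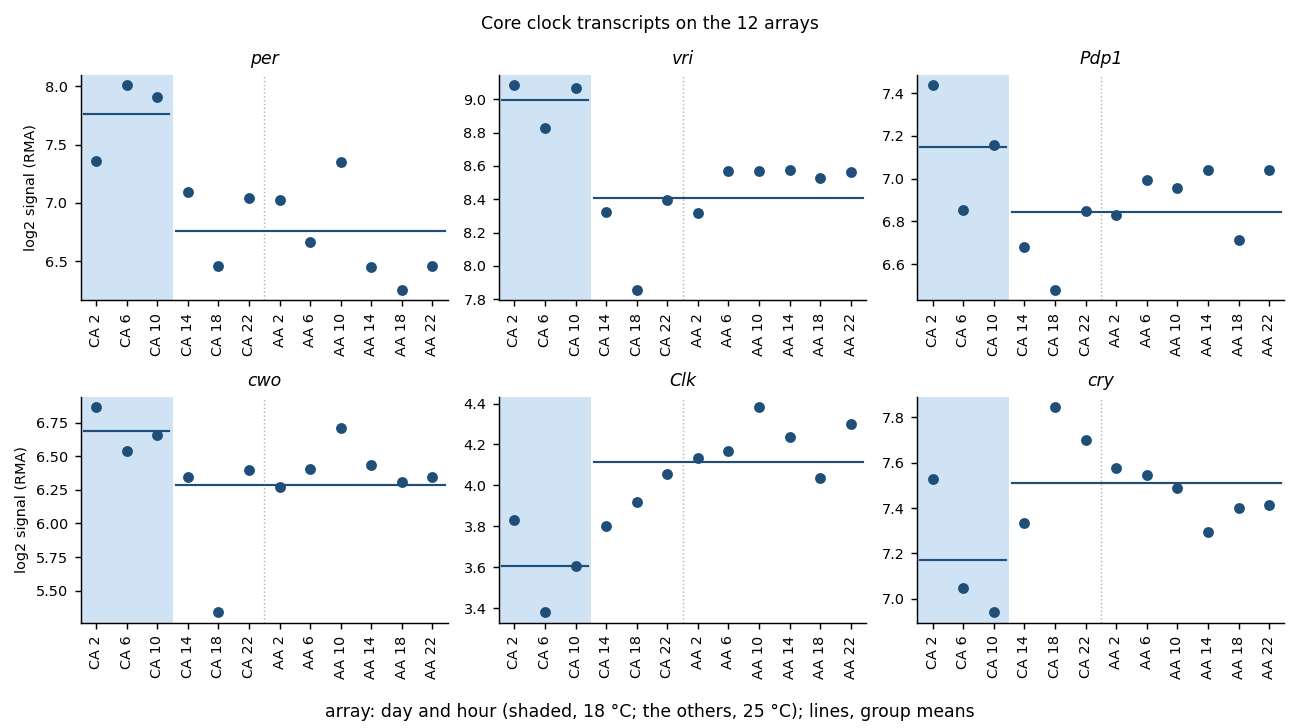
Log2 signals of per, vri, Pdp1, cwo, Clk and cry on each array, with the 18 °C arrays shaded and lines at the group means. The per signals sit at 7.36 to 8.01 in the shaded area and at 6.25 to 7.35 outside it, and Clk sits at 3.38 to 3.83 and 3.80 to 4.38.

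Regulators of RNA splicing did not separate the temperatures as a group. Of 33 measured RNA-binding splicing regulators 21 were higher and 12 lower, with a median of 0.07. Only higher members reached an unadjusted limma p under 0.05 (5 genes, 15.2%, against 1.93% of all genes), and none lay above every warm array. The KH-domain genes qkr58E-3 (6.22, 6.17 and 6.56 against 5.70 to 6.22) and qkr58E-1 differed by 0.33 (SE 0.10) and 0.19 (SE 0.06). The kinases of SR splicing factors SRPK and Doa differed by 0.43 (SE 0.16) and 0.24 (SE 0.10), and the hnRNP gene Hrb87F by 0.38 (SE 0.16). Median deviations of the list were -0.01, 0.12 and 0.08 on the cold arrays and ran from -0.24 to 0.26 on the warm ones. Doa and Hrb87F were named after their values were seen.

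Several RNA-binding genes outside that list did lie above every 25 °C array, and these too were picked out from their values. Rbfox1, a splicing factor of neurons, read 8.38, 8.34 and 8.39 against 7.45 to 8.30 on its brighter probe set (difference 0.30, SE 0.13). Its dimmer probe set overlapped, with a difference of 0.27 (SE 0.10). Unr, a translational regulator, read 5.14, 5.22 and 5.44 against 4.82 to 5.09 (0.29, SE 0.07). One probe set of larp (153228_at), whose product binds mRNA and controls translation, differed by 0.60 (SE 0.15), whereas another (150772_at) read 6.42, 6.40 and 6.29 against 6.23 to 6.57. Cbp20, a subunit of the nuclear cap-binding complex, went the other way with 4.78, 4.69 and 4.72 against 4.88 to 5.11 and a difference of -0.28 (SE 0.06, limma adjusted p = 0.144).

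Ecdysone is the steroid hormone of moulting, and it also acts in adults. Of 25 genes for ecdysone and juvenile hormone 13 were higher and 12 lower, with a median of 0.01. The nuclear receptor gene ftz-f1 read 4.37, 4.30 and 4.499 at 18 °C against 3.71 to 4.26 with a median of 3.89, a difference of 0.44 (SE 0.10, limma adjusted p = 0.292). The ecdysone-induced transcription factor gene Eip93F read 5.07, 5.25 and 4.96 against 4.56 to 4.90 with a median of 4.73, and differed by 0.35 (SE 0.08, limma adjusted p = 0.319). Both lay above every warm array (8% of the list, against 0.46% of all genes). Outside the list, Oatp74D, which imports ecdysone into cells, did the same with 6.47, 6.72 and 7.06 against 5.85 to 6.40 and a difference of 0.59 (SE 0.11, limma adjusted p = 0.144), and it was chosen after its values were seen. MsrA, an ecdysone-inducible methionine sulfoxide reductase, read 7.03, 7.30 and 6.72 against 6.95 to 7.83, a difference of -0.52 (SE 0.15).

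Genes of nutrient use varied in direction, and few separated the temperatures. The folate enzyme gene pug read 7.72, 7.73 and 7.89 against 7.36 to 7.59 (difference 0.31, SE 0.06, limma adjusted p = 0.184). It was the only one of 12 folate genes above every warm array (8.33%, against 0.46% of all genes). REPTOR, a transcription factor held back by TOR signalling, read 4.72, 4.66 and 4.94 against 4.35 to 4.63 (0.28, SE 0.08). Thor, the translation inhibitor 4E-BP, had its lowest signal of the 12 on the CA 2-h array, 8.25, and read 8.70 and 8.93 later (difference -0.33, SE 0.14, range at 25 °C 8.63 to 9.20). For fatty acid synthesis, acetyl-CoA carboxylase (ACC) read 8.99, 8.63 and 8.84 against 8.26 to 8.65, a difference of 0.34 (SE 0.09). The dimmer ACC probe set differed by 0.12 (SE 0.06). The lipid droplet protein gene Lsd-1 read 8.69, 7.49 and 7.37 against 8.12 to 8.72, so that it was within the warm range at 2 h and below it at 6 and 10 h. Trehalase (Treh, 0.29, SE 0.09) and the trehalose transporter Tret1-1 (0.31, SE 0.10) were among 19 of 26 higher genes of trehalose and glycogen. The other 7 were lower (26.9%, against 56.3% of all genes), and the median was 0.04. None of the 26 lay apart from every warm array. The list's median deviations on the cold arrays, -0.033 to 0.079, lay within the warm range of -0.110 to 0.096. The dimmer Tret1-1 probe set differed by 0.07 (SE 0.21). The sugar-responsive regulator sugarbabe (sug) went the other way, with a difference of -0.31 (SE 0.09). Of glycolytic genes, Gpdh1 and Pfrx each differed by 0.31 (SE 0.11 and 0.13), and the ethanolamine kinase gene eas by 0.33 (SE 0.09), all with overlap.

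Genes of ribosomes, the proteasome and oxidative phosphorylation had slightly lower medians. Of 64 mitochondrial ribosomal proteins 52 had a lower mean, with a median of -0.06, and 5 reached an unadjusted p under 0.05 (7.81%, against 3.02% of all genes). mRpL9 (6.37, 6.10 and 6.27 against 6.42 to 6.78, difference -0.35, SE 0.09) and mRpL50 (6.40, 6.37 and 6.34 against 6.43 to 6.69, difference -0.18, SE 0.06) lay below every warm array. They are 3.1% of the list, against 0.902% of all genes. The list's median deviations were 0.02, -0.09 and -0.06 on the CA 2-h, CA 6-h and CA 10-h arrays. On the warm arrays they ran from -0.07 to 0.08, so only the CA 6-h array lay below that range. Lower means were found for 29 of 38 cytosolic ribosomal proteins (median -0.05), 29 of 43 translation factors (-0.05), 30 of 39 proteasome genes (-0.05) and 46 of 66 genes of oxidative phosphorylation (-0.03), beside 56.3% of all genes. For each of these 4 groups the median deviations on the cold arrays lay within the range of the warm arrays. For cytosolic ribosomal proteins they were -0.046 to -0.022 on the cold and -0.153 to 0.087 on the warm arrays. None of the 4 groups had a gene apart from all warm arrays. The shares of genes with a lower mean were near that of all genes for mitochondrial protein import (8 of 14, 57.1%) and for the tricarboxylic acid cycle (8 of 13, 61.5%). High mobility group and heterochromatin proteins had a median of -0.10, with 10 of 12 lower. Among them the FACT subunit dre4 (-0.17, SE 0.06) and HP1c (-0.21, SE 0.09) had the smallest p. None of the 12 lay below every warm array. The list's median deviations were -0.014, -0.125 and -0.041 on the CA 2-h, CA 6-h and CA 10-h arrays. The warm arrays ran from -0.043 to 0.074, so only the CA 6-h array lay below them. Of 25 neuropeptide genes 23 were lower, by a median of -0.03, and none reached an unadjusted limma p under 0.05. Their median deviations on the cold arrays, -0.039 to -0.019, lay within the warm range of -0.074 to 0.061.

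Single genes of other lists also stood below the warm arrays. Cyp6w1, a cytochrome P450, read 8.23, 7.82 and 7.81 against 8.29 to 8.69, a difference of -0.54 (SE 0.10, limma adjusted p = 0.144). It was the only one of 83 P450 genes below every warm array, a share close to that of all genes (0.902%). Atg4b, a protease of autophagosome formation, differed by -0.22 (SE 0.05) and was the only one of 20 autophagy genes below every warm array. The gene stops, which is needed to end the light response of photoreceptors, differed by -0.18 (SE 0.06) on its brightest probe set. Read in this way, it was the only one of 24 rhodopsin and phototransduction genes below every warm array. Its dimmer probe sets overlapped, with differences of -0.32 (SE 0.17) and -0.30 (SE 0.20). Over all genes 0.46% lay above and 0.902% below every warm array, and the 42 process lists held 1184 genes. Of these lists 11 had at least 1 gene apart from every warm array and 31 had none, a count not read as a result about processes. The lists without one included 12 antimicrobial peptides (median -0.02), 93 cuticle proteins (-0.00378, 45 higher and 48 lower), 18 takeout family genes (0.01), 30 voltage-gated and leak channels (0.03) and 14 temperature sensing channels and entrainment genes (0.03). Frost, Turandot and other genes known from cold or desiccation had 7 measured members and a median of -0.03. In that list smp-30, a gene known for its induction in cold-acclimated flies, read 7.54, 7.94 and 8.20 against 7.51 to 7.98 (difference 0.16, SE 0.12). Of 88 odorant-binding proteins and receptors, Obp99a had the smallest p, with 9.77, 10.15 and 10.28 against 9.27 to 9.88 (0.52, SE 0.12, limma adjusted p = 0.319).

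**Figure D5:**
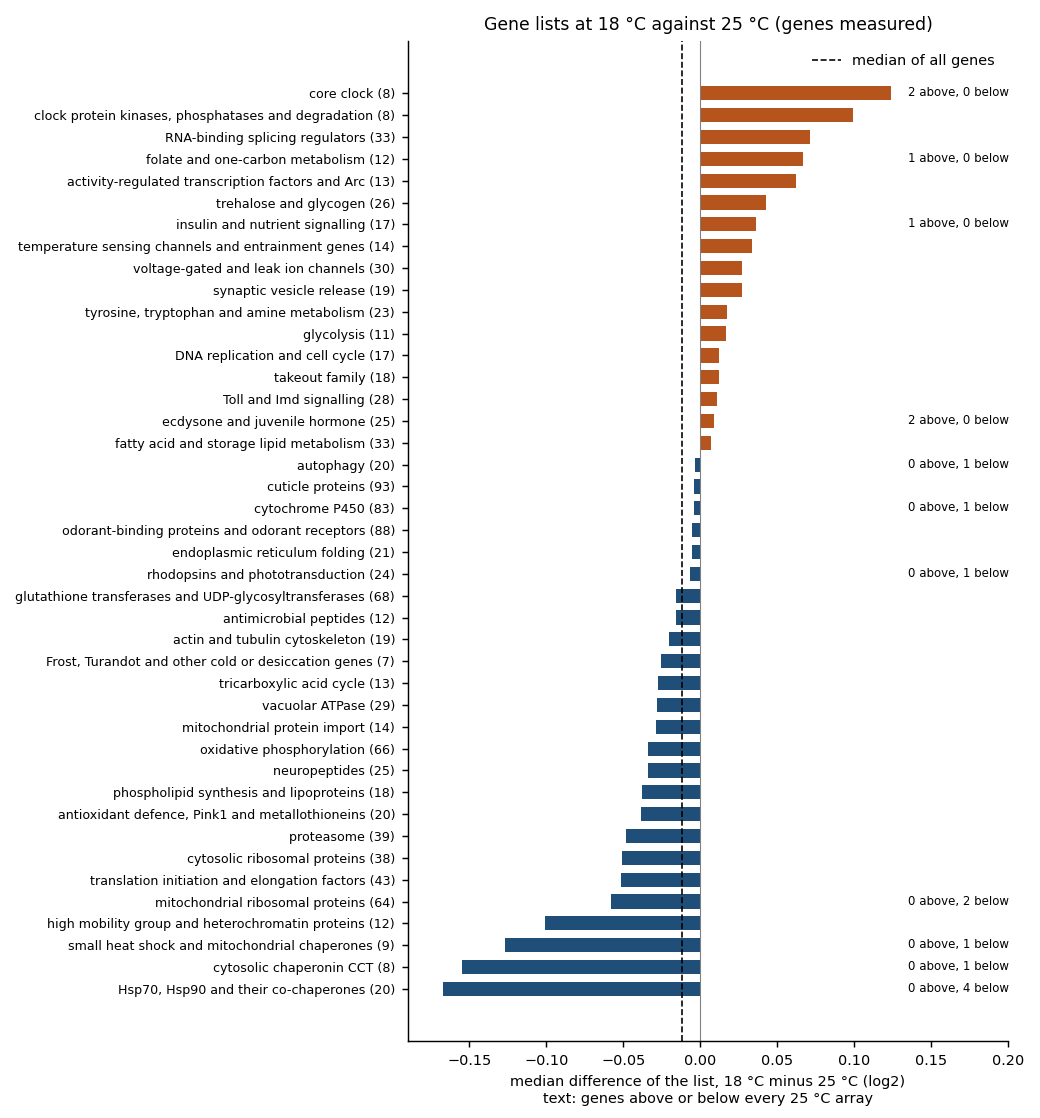
Median difference of the members of each of 42 process lists, 18 °C minus 25 °C in log2 units, with the number of measured genes in brackets and the median of all genes, -0.01, as a dashed line. The text at the right counts genes above or below every 25 °C array. The lists of Hsp70 and Hsp90, of CCT and of small and mitochondrial chaperones have the lowest medians, -0.17, -0.15 and -0.13. The core clock has the highest, 0.12, but 4 of its genes are higher and 4 lower, so it is not a shared rise. Lists with few genes have the least precise medians.

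Most of the widest gaps belonged to genes of no list. CG34376 read 6.40, 6.49 and 6.41 on one probe set (150368_at) against 5.86 to 6.16, a difference of 0.42 (SE 0.07, limma adjusted p = 0.0535), but its other probe sets differed by 0.07 (SE 0.10) and 0.03 (SE 0.09). CG10621 read 7.17, 7.28 and 7.09 against 6.06 to 6.94 (0.76, SE 0.12, limma adjusted p = 0.0595), and the probe set 151722_at, which has no symbol, differed by 0.52 (SE 0.09, limma adjusted p = 0.0659). With the dimmest tim probe set, these were the only probe sets with an adjusted p between 0.05 and 0.1. CG5853 (0.76, SE 0.16), CG9727 (0.37, SE 0.08) and the kinase gene misshapen (msn, 0.44, SE 0.14) completed the 10 widest gaps among the higher probe sets. On the lower side these were Sidpn, a bHLH repressor (6.94, 6.88 and 6.95 against 7.17 to 7.70), probe set 148013_at (-0.37, SE 0.09), CG10514 (-0.35, SE 0.07), bip1 (-0.27, SE 0.07) and CG6689 (-0.26, SE 0.06), beside Hsp83, Sry-delta, DnaJ-1, Cbp20 and mora. The Hox genes Deformed (Dfd, 4.83, 4.95 and 5.09 against 4.21 to 4.77) and Sex combs reduced (Scr, 4.09, 4.18 and 4.04 against 3.74 to 4.02), which pattern the head, were also above every warm array and were chosen after their values were seen.

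The cold arrays were not equal in how far they stood from the warm ones. Among the 65 higher probe sets the CA 10-h array had the most extreme signal for 31, the CA 6-h array for 21 and the CA 2-h array for 13. Among the 108 lower probe sets the CA 6-h array was the most extreme for 60, the CA 10-h array for 30 and the CA 2-h array for 18. The nearest warm array was spread over all 9, with 3 to 9 higher probe sets and 8 to 18 lower probe sets each, and the AA 10-h array was nearest most often on the lower side. When the 18 °C arrays were set against the CA thermophase alone, or against the AA arrays of the same hours, no probe set passed limma (784 and 443 had an unadjusted p under 0.05), while against all AA arrays 10 were higher and 5 lower. The 3 references share the cold arrays and differ in their number of arrays, so the counts are not independent of each other.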

How the data were processed

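RNA from fly heads was hybridised to 12 Affymetrix Drosophila Genome 1 arrays. The deposited values were log2 signals that the authors computed with RMA (version not given in the sources used here), which includes quantile normalization, so that a shift shared by most transcripts cannot be seen. No further normalization was applied. Precision is limited by the number of arrays.

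Of 14010 probe sets 44 controls were set aside and 13966 tested. They carried 1 symbol (12462), several (327) or none (1177) in the platform annotation, with 20 named through synonyms in the RefSeq gene table (assembly Release 6 plus ISO1 MT, used for names alone). The probe set with the highest mean stood for a gene. Two-group differences over all 12 arrays were fitted with limma 3.58.1 in R 4.3.3 (10 residual and 4.73 prior degrees of freedom), two-sided, with Benjamini-Hochberg adjustment over all tested probe sets. The script was tested on simulated data.

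The text names the probe sets past the threshold, the 10 widest gaps on each side among probe sets that exceeded the 20th percentile of their array on most arrays, all core clock genes and up to 3 genes of smallest p per list. A gene named otherwise is said to have been chosen after its values were seen. The lists, arrays and tests were chosen with earlier results of these data known. Alternatives changed the reference arrays, terms for day and part of the day, dim probe sets, normalization, variance trend, array weights, the probe sets that stand for a gene in a list and each array in turn, and 3 more were chosen after seeing the data.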

Additional observations from a re-analysis of the deposited data

Results flagged for a closer look

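In 11 of 139 groups of 9 arrays at 25 °C (88 gene signals and 51 list medians), 1 array stood farther from the rest than Dixon's 95% critical value for 9 samples (0.493) allows, and chance gives about 1 in 20. The groups of 3 arrays at 18 °C are too small for this test. Of the 11, 8 were on the CA 18-h array, which also had the lowest correlations with the other arrays. On that array cwo was lowest at 5.34 (next 6.27), vri at 7.86 (next 8.32), Rbfox1 at 7.45 (next 7.93) and the Cipc probe set 153408_at at 4.21 (next 4.62). There slmb was highest at 4.55 (next 4.21), Cdc37, an Hsp90 co-chaperone for kinases, at 7.33 (next 6.97) and probe set 148013_at at 7.87 (next 7.57). The median deviation of the fat body marker genes was lowest there at -0.185 (next -0.02). On other arrays, Sry-delta was highest at 5.73 on the CA 22-h array (next 5.58), CG10621 was highest at 6.94 on the AA 6-h array (next 6.49), and MsrA was lowest at 6.95 on the AA 18-h array (next 7.46).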

How the results depend on the processing

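Of 88 gene differences followed through 27 alternatives, 81 kept their sign and 7 turned under at least 1. Of the 81, 35 shrank by more than 1.5 times under some alternative, 15 of them with day and part of the day as terms, where per gave 0.27, dco 0.002, msn 0.0167 and the brightest cpo probe set (143113_at) 0.042. Calls above and below depended on the reference. They numbered 0 and 0 with the CA warm arrays alone, with the AA arrays at 2, 6 and 10 h, with the part of the day (2 to 10 h or 14 to 22 h) as a term and with day and part of the day as terms, where limma gave 784, 443, 435 and 1104 probe sets at an unadjusted p under 0.05, and 10 and 5 with the AA arrays alone. With day as a term they were 1 and 0, with a mean-variance trend 1 and 1, and with array weights 9 and 5. Leaving out each of 12 arrays gave 0 to 8 higher and 0 to 7 lower, with none passing without the CA 6-h, CA 10-h, AA 2-h or AA 10-h array (438 to 726 at an unadjusted p under 0.05). Without the CA 6-h, AA 2-h and AA 6-h arrays, a choice made after seeing the data, they were 0 and 0 (444 at an unadjusted p under 0.05), and without the CA 2-h and CA 14-h arrays, likewise, 7 and 6. Probe sets apart from every warm array, higher and lower, numbered 775 and 772 against the CA warm arrays, 162 and 271 against the AA arrays, and 579 and 521 against the AA arrays at 2, 6 and 10 h, where fewer arrays have to be passed. They numbered 77 to 215 and 115 to 483 without 1 array, 292 and 370 without the CA 6-h, AA 2-h and AA 6-h arrays, and 249 and 543 without the CA 2-h and CA 14-h arrays. The median of the Hsp70 and Hsp90 genes was -0.29 against the CA warm arrays and with day as a term, -0.31 with day and part of the day as terms, and -0.24 to -0.10 without 1 array. That of CCT was -0.28, -0.28 and -0.26, and that of the small and mitochondrial chaperones -0.032, -0.032 and -0.10. The latter was -0.15 without dim probe sets, -0.15 with array weights, -0.22 without the CA 2-h and CA 14-h arrays and -0.19 to -0.0665 without 1 array. All 3 chaperone medians stayed below 0 under every alternative run.

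The differences that turned follow. The brightest tim probe set (142154_at) gave 0.026 against the CA warm arrays and with day as a term, 0.14 with both terms, 0.0128 without the CA 6-h, AA 2-h and AA 6-h arrays, and -0.164 to 0.0303 without 1 array. For cyc these were 0.0153, 0.0153 and 0.072 (CA warm, day, both terms). With both terms l(2)efl gave 0.0333, mRpL50 0.00733, SRPK -0.18 and Hsc70-4 -0.90. The larp probe set 150772_at gave 0.00933 against the AA arrays, 0.00089 with repeated quantile normalization and 0.0113 with array weights, and -0.0278 to 0.0397 without 1 array. The cause of these changes was not tested. The labels give no shared replicate numbers, but 3 cold arrays share their clock hours with 3 AA arrays. With clock hour as a replicate block over these 6 arrays (2 residual degrees of freedom, chosen after seeing the data) limma called 0 higher and 0 lower probe sets (396 at an unadjusted p under 0.05), and the adjusted p was 0.398 for tim, 0.673 for cpo and 0.415 for Sry-delta.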
